A study of Mus musculus with 6 samples.

Results

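Chemokines are small secreted proteins that steer leukocytes through tissue. The 10 members described here, Ccl5, Ccl6, Ccl8, Ccl20, Ccl25, Ccl28, Cxcl1, Cxcl9, Cxcl10 and Cxcl12, were chosen by name as chemokines made by the epithelium, stroma and lymphocytes of the gut. The choice was made with earlier results of these data known, so counts of members called are descriptions. The members were matched on the arrays by gene name or transcript accession. All 10 were measured, by 12 probes, among 14701 named genes tested. The material was scraped colonic mucosa of C57BL/6 mice at 90 postnatal days, either Tlr2 knockout or wild type, with no other treatment named in the labels. Each of 4 two-colour expression arrays held 1 knockout and 1 wild-type sample. Arrays are called pairs 1, 2, 4 and 5 after the number of the knockout sample. The knockout carried the dye Cy3 in pairs 1 and 2 and Cy5 in pairs 4 and 5. The labels give each sample its own code but do not state that each came from a separate animal, so a p-value here measures the spread between these arrays. They also do not say which part of the colon was scraped or whether knockout and wild-type animals were littermates.

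Tlr2 is a cell-surface receptor for bacterial lipoproteins that signals to NF-kB, a transcription factor that switches on many chemokine genes. In the intestine, epithelial cells secrete Ccl20, Ccl25 and Ccl28, whose receptors Ccr6, Ccr9 and Ccr10 draw dendritic cells, T cells and plasma cells to the mucosa. Ccl5 comes largely from T and NK cells, Cxcl9 and Cxcl10 are induced by interferon, Cxcl1 draws neutrophils, Ccl6 and Ccl8 are linked to myeloid cells, and Cxcl12 comes from stromal and endothelial cells.

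The gene starts of 9 of the 10 members, all but Ccl5, had entries in the RefSeq promoter table (build GRCm38.p6), so Ccl5 was not searched. The 250 bases before each start were searched on both strands for the NF-kB motif (by name), the interferon motifs GAAANNGAA, called IRF, and TTCNNNGAA, called GAS, the AP-1 motif TGANTCA, the TATA box written as TATAAA, and the CDX motif TTTATNG. The windows of 4 members are printed because their array values are described in detail below: the epithelial chemokines Ccl20 and Ccl25, and the interferon-inducible pair Cxcl9 and Cxcl10. Capitals mark matches to the NF-kB, IRF and GAS motifs. The windows are Ccl20 at chr1:83116516-83116765 on the plus strand, the second of 2 listed starts of Ccl25 at chr8:4349338-4349587 on the plus strand, Cxcl9 at chr5:92328080-92328329 on the minus strand and Cxcl10 at chr5:92348890-92349139 on the minus strand.
Ccl20: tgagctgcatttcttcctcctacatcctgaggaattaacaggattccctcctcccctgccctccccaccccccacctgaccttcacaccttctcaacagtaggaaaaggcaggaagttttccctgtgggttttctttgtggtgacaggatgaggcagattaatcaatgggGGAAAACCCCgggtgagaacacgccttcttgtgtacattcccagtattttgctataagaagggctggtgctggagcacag
Ccl25: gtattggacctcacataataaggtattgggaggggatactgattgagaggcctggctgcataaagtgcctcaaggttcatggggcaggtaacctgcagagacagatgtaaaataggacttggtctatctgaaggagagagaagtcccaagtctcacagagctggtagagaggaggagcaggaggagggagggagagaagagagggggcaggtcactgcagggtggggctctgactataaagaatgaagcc
Cxcl9: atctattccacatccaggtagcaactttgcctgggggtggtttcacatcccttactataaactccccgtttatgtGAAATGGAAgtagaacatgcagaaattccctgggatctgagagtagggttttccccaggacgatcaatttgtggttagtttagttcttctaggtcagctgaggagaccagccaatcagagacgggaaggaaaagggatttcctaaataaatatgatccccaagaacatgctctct
Cxcl10: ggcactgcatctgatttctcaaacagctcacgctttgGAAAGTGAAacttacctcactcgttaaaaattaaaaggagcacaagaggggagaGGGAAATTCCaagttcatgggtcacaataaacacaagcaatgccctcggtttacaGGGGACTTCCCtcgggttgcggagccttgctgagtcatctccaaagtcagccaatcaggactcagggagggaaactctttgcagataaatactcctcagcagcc

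Positions are counted back from the gene start. Among the printed windows, Ccl20 held 1 NF-kB match, at -80 to -71. Cxcl10 held NF-kB matches at -159 to -150 and at -104 to -94 (where 2 matches overlap) an IRF match at -213 to -205, an AP-1 match at -74 to -68 and a CDX match at -135 to -129. Cxcl9 held 1 IRF match, at -175 to -167, and a TATA match at -195 to -190 that lies within a CDX match. The Ccl25 window held no match to these 3 motifs, and its TATA match at -16 to -11 lies within the only CDX match there. Of the windows not printed, that of Cxcl1 held 2 overlapping NF-kB matches at -71 to -61, that of Ccl8 a TATA match at -32 to -27 within a CDX match, and those of Ccl6, Ccl28, Cxcl12 and the first Ccl25 start none of the motifs searched. Among 32851 promoter windows of the same length, 7.25% held the NF-kB motif, 7.13% the IRF motif, 7.02% the GAS motif, 6.75% the AP-1 motif, 12.4% the TATA motif and 9.81% the CDX motif. A match is a description of the sequence, not a measured site.

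Values are log2 ratios of knockout over wild type, so that a negative value is lower in the knockout. The targeted gene checks the labels: Tlr2 was at -4.42, -5.31, -5.50 and -4.20 in pairs 1, 2, 4 and 5. Its limma adjusted p was 0.314, so that with 4 arrays and a dye term even the deleted gene did not pass 0.05. Between 63.3% and 76.5% of the 43379 spots were well above background in a channel. Pair 1 stood apart from the other arrays. Over the 14690 genes measured on all 4 arrays, its ratios correlated with those of pairs 2, 4 and 5 at r = -0.21, -0.42 and -0.10, whereas the other arrays correlated with each other at 0.42 to 0.57. Genes are not independent replicates, so these r values are descriptions. The 8 measured Hox genes of paralog groups 10 to 13, which are known to mark position along the gut, had medians of -1.48, 0.50, 1.21 and 0.50 in pairs 1, 2, 4 and 5. Their part in the chemokine values was not tested. The means of the members and their calls by rule are therefore given also without pair 1. Those means are plain averages of pairs 2, 4 and 5, without the dye term, so the dyes are not balanced in them.

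Ccl5 was the chemokine with the largest mean difference of the 10, and the knockout sample was the lower of the pair on every array. The submitters used a rule of their own, a change of over 1.6-fold on 2 or more arrays that no other array contradicts. By it, Ccl5 was the only one of the 10 members to pass, as lower. That rule took 0.714% of all genes as lower and 0.762% as higher. Of the 10 members, 5 had a mean below 0 and 5 above 0, and their median was -0.05 against -0.01 over all genes tested. In limma with Benjamini-Hochberg adjustment over all genes, 0 members and 0 of 14701 genes (0%) passed an adjusted p of 0.05. At an unadjusted p under 0.05, limma counted 2 members, Ccl5 and Ccl20, both lower, and 1193 of all genes (8.12%).

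**Figure D1:**
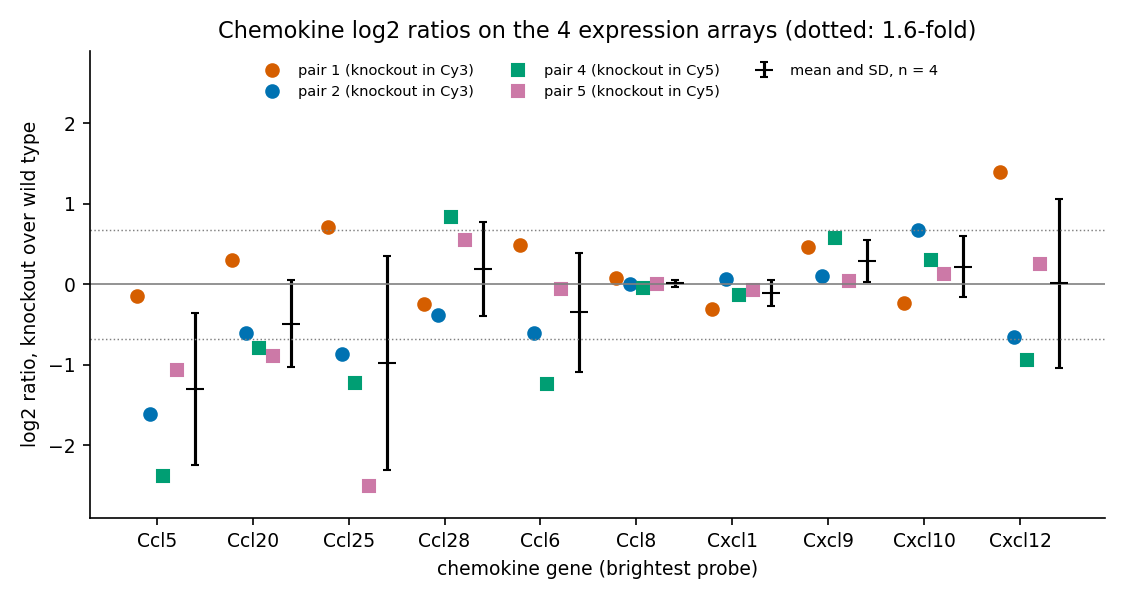
Log2 ratio of knockout over wild type (vertical axis) for the brightest probe of each of the 10 chemokines, with 1 point per array, circles for arrays with the knockout in Cy3 and squares for Cy5, and the mean with SD (n = 4 arrays) in black. Dotted lines mark 1.6-fold. Ccl5 lies below 0 in every pair, while pair 1 lies above 0 and the other pairs below it for Ccl20, Ccl25 and Ccl6.

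The Ccl5 protein attracts T cells, eosinophils and monocytes through receptors that include Ccr3 and Ccr1. Its log2 channel levels were 10.22, 10.39, 11.48 and 10.47 in the wild-type samples of pairs 1, 2, 4 and 5, and 10.08, 8.77, 9.10 and 9.41 in the knockout samples. The 2 genotypes did not overlap, although the knockout sample of pair 1 lay close under the lowest wild-type sample. Of all genes, 2.42% had levels that did not overlap and were lower in the knockout. The ratios were -0.15, -1.61, -2.38 and -1.07, a mean of -1.30 ± 0.94 (SD, n = 4), or 2.47-fold lower. The limma 95% interval ran from -2.28 to -0.32, with an adjusted p of 0.594. An exact two-sided sign-flip test over the 4 pairs gave 0.125, the smallest p that 4 pairs allow. Without pair 1 the mean was -1.69 ± 0.659 (n = 3), or 3.22-fold lower. Within the dye orientations the mean of Ccl5 was -0.88 over pairs 1 and 2 and -1.73 over pairs 4 and 5, both below 0. In the authors' deposited table of decreased transcripts, Ccl5 is listed with linear ratios of 0.781, 0.337, 0.207 and 0.454 on arrays 1 to 4 and an average of 0.445.

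**Figure D2:**
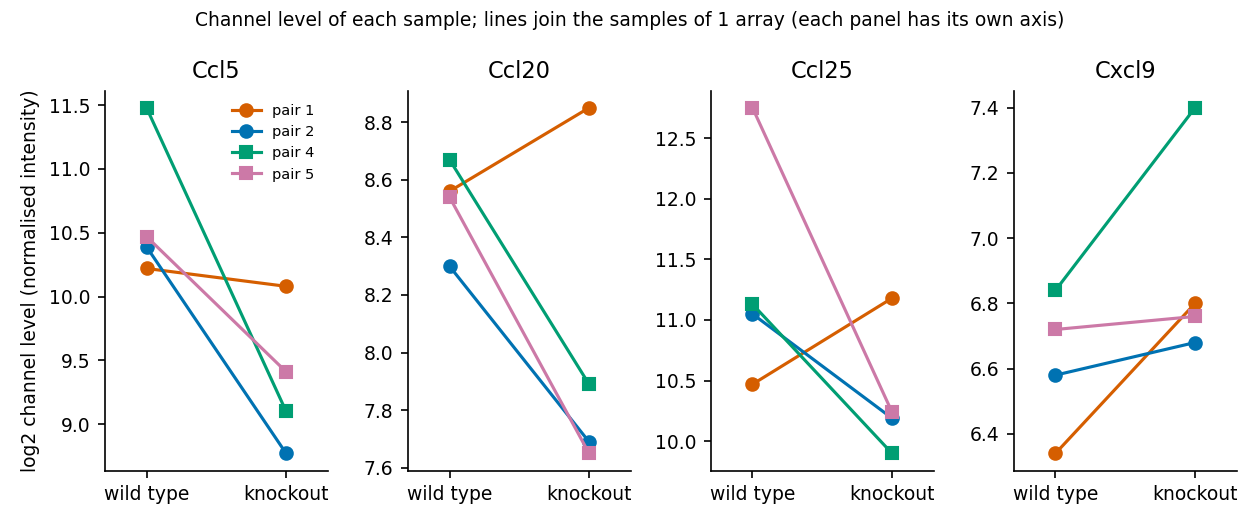
Log2 channel level (normalised intensity) of Ccl5, Ccl20, Ccl25 and Cxcl9 in each wild-type and knockout sample, with lines joining the samples of 1 array and a separate axis per gene, so that levels are not compared between genes. For Ccl5 all 4 knockout samples (8.77 to 10.08) sit below all 4 wild-type samples (10.22 to 11.48), and for the other genes the ranges overlap.

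In whole mucosa, fewer cells of a type and less RNA per cell cannot be told apart. Of 20 T, NK and innate lymphoid marker genes, 18 were measured, of which 0 rose and 2 fell by the submitters' rule. These were the granzymes of cytotoxic lymphocytes, Gzma at -1.24, -1.54, -2.49 and -0.57 and Gzmb at -0.79, -1.12, -1.71 and -0.23. Over all genes the rule took 0.714% as lower. Without pair 1, 3 fell by the rule, with Cd3d in addition, against 3.37% of all genes. The list's median was -0.06, with 0.22, -0.11, -0.47 and -0.09 in pairs 1, 2, 4 and 5. Its summed log2 level ran from 12.36 to 12.77 in the wild type and from 12.23 to 12.68 in the knockout. Of the defining T-cell receptor complex genes, Cd3g was at 0.21, -0.36, -0.57 and -0.21, and Cd3d, Cd3e and Cd247 had means of -0.47 ± 1.16, -0.08 ± 0.116 and 0.02 ± 0.115 (n = 4). Klrd1, an NK cell receptor, was at 0.69, -0.66, -1.28 and -0.59. The part of these cells in the Ccl5 difference was not tested.

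Its receptor Ccr3 was at 0.16, 0.05, -0.04 and -0.05, well above background on 3 of 4 arrays per genotype. The single Ccr1 probe was not well above background on any array. The 5 genes whose 4 ratios lay nearest to those of Ccl5, by Euclidean distance in log2 units, were Camk2b at 0.649, Ufm1 at 0.799, Dpm3 at 0.836, Nop10 at 0.935 and Tomm7 at 0.993. Their pair 1 ratios ran from 0.05 to 0.76, above the -0.15 of Ccl5, and likeness over 4 arrays is only a description.

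Among the epithelial chemokines, Ccl20 and Ccl25 were lower in the knockout in pairs 2, 4 and 5 and higher in pair 1. Without pair 1, the submitters' rule took 3 members as lower, Ccl5, Ccl20 and Ccl25, and 0 as higher. On those 3 arrays it took 3.37% of all genes as lower and 2.64% as higher. A sign in pair 1 opposite to that of every other pair occurred for 4 of the 10 members (Ccl6, Ccl20, Ccl25 and Cxcl10) and for 32.2% of all genes.

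Ccl20, made by the epithelium over lymphoid follicles and induced by bacterial products, had wild-type levels of 8.56, 8.30, 8.67 and 8.54 and knockout levels of 8.85, 7.69, 7.89 and 7.65 in pairs 1, 2, 4 and 5. The knockout samples of pairs 2, 4 and 5 lay below every wild-type sample, and that of pair 1 lay above them all. The ratios were 0.30, -0.60, -0.79 and -0.89, a mean of -0.49 ± 0.54 (n = 4), or 1.41-fold lower. In limma the adjusted p was 0.616. Without pair 1 the mean was -0.76 ± 0.145 (n = 3), or 1.69-fold lower. Within the dye orientations the means were -0.15 over pairs 1 and 2 and -0.84 over pairs 4 and 5. Its receptor Ccr6, carried by B cells and Th17 cells, was at 0.06, -1.11, -0.15 and -0.05 (mean -0.31 ± 0.538), and pair 2 alone lay beyond -0.15. All 7 listed markers of follicle-associated epithelium were measured, and 0 rose and 0 fell by the rule. Their median was -0.10, and the 4 with the smallest p were Marcksl1 (0.41 ± 0.232), Anxa5 (-0.35 ± 0.206), Ccl9 (-0.46 ± 0.862) and Gp2 (-0.46 ± 0.864). Their part in the Ccl20 values was not tested.

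Ccl25, known best from small intestine and thymus, was measured by 2 probes of the same transcript. At the brighter probe the wild-type levels were 10.47, 11.05, 11.13 and 12.75 and the knockout levels 11.18, 10.19, 9.90 and 10.24. The wild-type sample of pair 5 stood above all others. The ratios were 0.71, -0.87, -1.23 and -2.51, a mean of -0.98 ± 1.33 (n = 4), or 1.97-fold lower (limma adjusted p = 0.618). The second probe gave 0.37, -0.30, -0.62 and -1.57, the same signs and order with smaller sizes. Without pair 1 the means of the 2 probes were -1.54 ± 0.865 and -0.83 ± 0.66 (n = 3). With the dye term, the fitted value of the brighter probe without pair 1 was -1.37. The receptor Ccr9, which marks gut-homing T cells and plasma cells, was at -0.06, -0.01, -0.19 and 0.00 and did not pass either call.

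Ccl28, a mucosal chemokine for IgA plasma cells with antimicrobial activity of its own, split by dye. Its ratios were -0.24 and -0.38 in pairs 1 and 2, with the knockout in Cy3, and 0.83 and 0.55 in pairs 4 and 5, with the knockout in Cy5. The wild-type levels were 8.76, 8.82, 8.46 and 8.28 and the knockout levels 8.53, 8.45, 9.28 and 8.83, so the genotypes overlapped. The mean was 0.19 ± 0.588 (n = 4, limma adjusted p = 0.657), and 0.33 ± 0.629 without pair 1 (n = 3). With the dye term, the fitted Ccl28 value without pair 1 was 0.16. Such a split, with 1 sign on both arrays of an orientation and the opposite on the others, occurred for 1 of the 10 members and for 13.1% of all genes. Its receptor Ccr10 was well above background on 1 knockout and 2 wild-type arrays and was at -0.05, 0.05, -0.02 and -0.05. Of 14 B and plasma cell markers, 12 were measured, with 0 past the rule in either direction and a median of -0.13. Among those with the smallest p were Cd79a (-0.15 ± 0.179), Sdc1 (0.35 ± 0.572) and Cd79b (-0.65 ± 1.41). Of 17 colon epithelium markers, 16 were measured, and 0 passed the rule, but 10 of the 16 were saturated on 3 or more arrays, among them Cdh1 and Epcam, which define epithelium. Their differences are therefore not given. The list medians of 0.32, 0.47, -0.54 and -0.47 in pairs 1, 2, 4 and 5 rest largely on these saturated probes and also split by dye, in the direction opposite to Ccl28. Without pair 1, 1 epithelial marker rose by the rule, the chloride exchanger Slc26a3, against 2.64% of all genes. The 2 unsaturated genes with the smallest p were Chga (-0.31 ± 0.589), an enteroendocrine granule protein, and Lgr5 (-0.26 ± 0.371), a crypt stem cell marker.

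Of the interferon-inducible chemokines, Cxcl9 was higher in the knockout sample of every pair and Cxcl10 in 3 of 4. Both bind Cxcr3 on activated T and NK cells. Cxcl9 had wild-type levels of 6.34, 6.58, 6.84 and 6.72 and knockout levels of 6.80, 6.68, 7.40 and 6.76. The ranges overlapped, and the differences in pairs 2 and 5 were small. The ratios were 0.46, 0.10, 0.57 and 0.04, a mean of 0.29 ± 0.259 (n = 4, limma adjusted p = 0.639). The limma 95% interval ran from -0.09 to 0.67. The mean of Cxcl9 over the 3 other arrays, without pair 1, was 0.24 ± 0.287 (n = 3). Cxcl9 was the 1 member higher on all 4 arrays, as were 7.18% of all genes, and Ccl5 the 1 member lower on all 4, as were 8.41%.

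Cxcl9 is dim on these arrays, and its size depended on how background was treated. With Agilent's processed signals, the ratios were 2.30, 0.24, 1.03 and 0.05, a mean of 0.90 ± 1.02, and Cxcl9 then passed the submitters' rule as higher. On these signals the rule took 1 member as higher and 2 as lower (Ccl5 and Cxcl1), against 1.84% and 1.89% of all genes. With a smaller normexp offset of 1 in place of 50, an alternative added after the data were seen, the mean of Cxcl9 was 0.65 ± 0.581 and it also passed the rule. In the authors' deposited table of increased transcripts, Cxcl9 is listed with linear ratios of 2.27, 1.18, 2.04 and 1.04 on arrays 1 to 4 and an average of 1.63. These are not log2 values, and the table does not say which array number is which pair. On the same scale, the deposited Ccl5 ratios match its processed log2 ratios of -0.36, -1.57, -2.27 and -1.14 in pairs 1, 2, 4 and 5. In that order, Cxcl9 on arrays 2 to 4 also matches pairs 2, 4 and 5. Array 1 does not match, as a linear 2.27 is a smaller change than the log2 2.30 of pair 1. The reason was not tested.

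**Figure D3:**
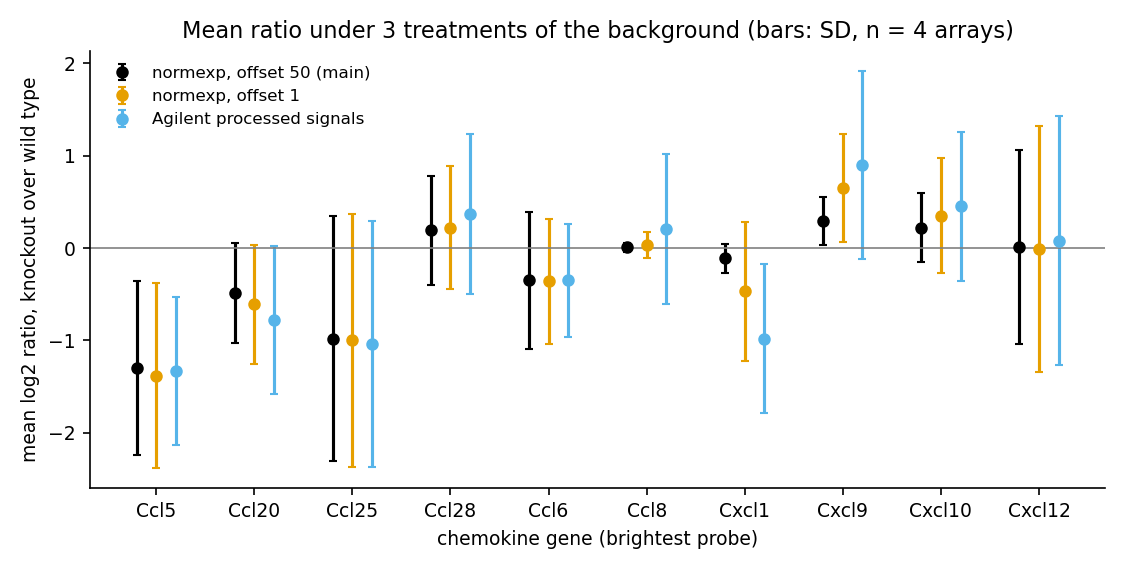
Mean log2 ratio of knockout over wild type (vertical axis) for each chemokine under normexp with offset 50, normexp with offset 1 and Agilent's processed signals, with bars for the SD over 4 arrays. Ccl5, Ccl6 and Ccl25 hardly move, while the dim Cxcl1 goes from -0.11 to -0.98 and Cxcl9 from 0.29 to 0.90.

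Cxcl10 had ratios of -0.23, 0.67, 0.30 and 0.13. Its wild-type levels were 8.05, 6.69, 8.11 and 7.53 and its knockout levels 7.82, 7.36, 8.41 and 7.66, so that the spread within a genotype was wider than the difference. The mean was 0.22 ± 0.374 (n = 4, limma adjusted p = 0.780), 0.45 ± 0.808 on the processed signals, and 0.37 ± 0.276 without pair 1 (n = 3). Cxcr3 was at 0.29, -0.39, -0.70 and -0.18, with a sign opposite to that of Cxcl10 in every pair. Ifng, the main inducer of both ligands, was not well above background on any array at either of its 2 probes, and of its receptor chains, Ifngr2 had a mean of 0.04 ± 0.223 while the Ifngr1 probe was saturated on 3 of 4 arrays.

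Cxcl1, a neutrophil attractant induced through NF-kB, was near the limit of detection. Its probe was not well above background in the knockout on any array, and was so in the wild type on 2 of 4. The ratios of -0.31, 0.07, -0.13 and -0.07 do not order the genotypes. The mean was -0.11 ± 0.158 (n = 4, limma adjusted p = 0.822), with a limma 95% interval from -0.40 to 0.19, and -0.04 ± 0.103 without pair 1 (n = 3). The processed signals gave -1.81, -0.05, -0.56 and -1.48 with the same detection. Both probes of its receptor Cxcr2 were not well above background on any array, and neither were Cxcl2 and Cxcl3, further neutrophil attractants.

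Ccl6 and Ccl8 are linked to macrophages and other myeloid cells. Ccl6 was bright, with wild-type levels of 15.30, 15.65, 15.60 and 15.00 and knockout levels of 15.79, 15.04, 14.35 and 14.94, and its wild-type spot was saturated in pair 2. The ratios were 0.49, -0.60, -1.24 and -0.06, a mean of -0.35 ± 0.743 (n = 4, limma adjusted p = 0.780). Without pair 1 the mean was -0.64 ± 0.591 (n = 3), while the fitted Ccl6 value was -0.08 without pair 2 and -0.06 without pair 4, so that its size turned on single arrays. Ccl8 was dim, well above background on 3 of 4 arrays in each genotype, with ratios of 0.08, 0.00, -0.04 and 0.00 and a mean of 0.01 ± 0.0483, or -0.01 ± 0.0243 without pair 1. On the processed signals its ratios spread from -0.70 to 1.14. Of 18 myeloid markers, 14 were measured, with 0 past the rule and a median of -0.02. Their summed log2 level was lower in the knockout by 0.29, 0.51, 0.01 and 0.47 in pairs 1, 2, 4 and 5, running from 12.13 to 12.52 in the wild type and from 11.82 to 12.12 in the knockout. Such a sum is weighted to the brightest genes of a list, and the myeloid medians by pair were 0.06, -0.24, -0.02 and 0.02. The T, NK and innate lymphoid sum differed by 0.19, -0.13, -0.35 and -0.03. The B and plasma cell sum differed by -0.54, 0.44, 0.40 and 0.49, with the signs of Xbp1 and Sdc1. The medians of that list were 0.07, -0.51, 0.01 and 0.00 by pair, and 8 of its 12 means lay below 0. The sum of follicle-associated epithelium differed by -0.09, -0.03, -0.08 and -0.02. Cd14, the endotoxin co-receptor, was at -0.66, -0.64, 0.05 and -0.74, and Lyz2, Cx3cr1 and Itgam had means of -0.25 ± 0.343, 0.11 ± 0.104 and 0.09 ± 0.13. The part of myeloid cells in the Ccl6 values was not tested.

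Cxcl12, which retains leukocytes and plasma cells through Cxcr4, varied widely among arrays. The probe of transcript NM_001012477 gave wild-type levels of 7.38, 8.24, 8.45 and 7.69 and knockout levels of 8.78, 7.58, 7.52 and 7.94. The ratios were 1.40, -0.66, -0.94 and 0.25, a mean of 0.01 ± 1.05 (n = 4, limma adjusted p = 0.998). The mean without pair 1 was -0.45 ± 0.62 (n = 3), so that its sign turned on that array. The limma 95% interval, from -1.16 to 1.18, was the widest of the 10. The probe of NM_021704, another transcript of the gene, gave 0.72, 0.19, -0.41 and 0.00, so the probes differed in sign in pair 2. Cxcr4 was at 0.17, -0.12, -0.06 and 0.05, and the scavenger receptor Ackr3 at 0.15, -0.83, -0.12 and 0.08.

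The medians of the stromal markers had the same sign as the first Cxcl12 probe on each array. So did the medians of the 21 measured Hox genes of paralog groups 1 to 9, at 0.71, -0.21, -0.33 and 0.08. Not every stromal marker did, and Dcn, Pdgfrb, Fbln1 and Col6a1, given below, did not. How often these signs occur over all genes was not counted. A sign in pair 1 opposite to the mean of pairs 2, 4 and 5 occurred for 62% of all genes. The 12 measured fibroblast and stroma markers of 13 had a median of 0.00 over the arrays and medians of 0.40, -0.41, -0.57 and 0.07 in pairs 1, 2, 4 and 5, and Dcn, a matrix proteoglycan, was at 0.69, -1.67, -2.18 and -0.31. By the rule 1 of the 12 fell, Pdgfrb at -0.70, -0.71, -0.16 and -0.01, against 0.714% of all genes. Without pair 1 Pdgfrb no longer passed and Dcn fell instead, against 3.37%. Fbln1 and Col6a1 had means of 0.13 ± 0.197 and -0.15 ± 0.375. The summed level of the list ran from 11.93 to 12.41 in the wild type and from 11.68 to 12.59 in the knockout. All 12 endothelial markers were measured, with 0 past the rule and a median of -0.01, and Pecam1, Kdr, Eng and Vwf had means of 0.18 ± 0.356, -0.14 ± 0.277, -0.10 ± 0.175 and 0.17 ± 0.398. The 8 measured smooth muscle markers of 9 had a median of -0.32 over the arrays and of -0.94, -0.12, -0.39 and 0.44 by pair, with 0 past the rule, or without pair 1 Acta2 higher and Tagln lower. Without pair 1 the rule took 2.64% of all genes as higher and 3.37% as lower. Tagln, Des, Myh11 and Smtn had means of -0.62 ± 0.846, -0.29 ± 0.449, -0.35 ± 0.627 and 0.18 ± 0.291. Their part in the Cxcl12 values was not tested.

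Elsewhere in the chemokine system, no measured ligand or receptor passed the rule. Of 30 other ligands, 15 were measured, with 0 past the rule in either direction and a median of -0.08. Cxcl16, a membrane-bound ligand of Cxcr6, had the smallest limma p of them (adjusted p = 0.594) and was at -0.34, 0.93, 1.65 and 1.11, with pair 1 again of opposite sign. Ccl17, Ccl9 and Ccl27a followed, with means of 0.22 ± 0.214, -0.46 ± 0.862 and -0.47 ± 0.664. Without pair 1, 2 other ligands were higher by the rule, Cxcl16 and Cxcl5, and 1 was lower, Ccl27a. Of all genes, 2.64% were higher and 3.37% lower by it on those arrays. Of the 15 that were not measured, 4 had no named probe, and the others include Ccl3, Ccl7, Ccl11 and Ccl22, none of them well above background on 2 arrays of a genotype.

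Of 15 receptors of the members, 11 were measured, with 0 past the rule, with or without pair 1, and a median of -0.05. Those with the smallest p were Ackr1 (-0.18 ± 0.154), Ackr2 (0.16 ± 0.262), Cxcr3 (-0.25 ± 0.414) and Ccr6 (-0.31 ± 0.538). Of 8 other receptors, 5 were measured, with 0 past the rule and a median of -0.11, led by Ccrl2 (-0.36 ± 0.373), Cx3cr1 (0.11 ± 0.104), Cxcr5 (-0.14 ± 0.268) and Xcr1 (-0.11 ± 0.211). Of 26 cytokines and cytokine receptors that induce chemokines, 19 were measured, with 0 past the rule and a median of 0.03, led by Tnfrsf1a (0.28 ± 0.214), Il17rc (0.24 ± 0.17), Il18 (-0.48 ± 0.736) and Il1r1 (-0.28 ± 0.303). Besides Ifng, the probes for Il17a, Il17c, Il22, Il6 and Il1a were not well above background on any array.

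**Figure D4:**
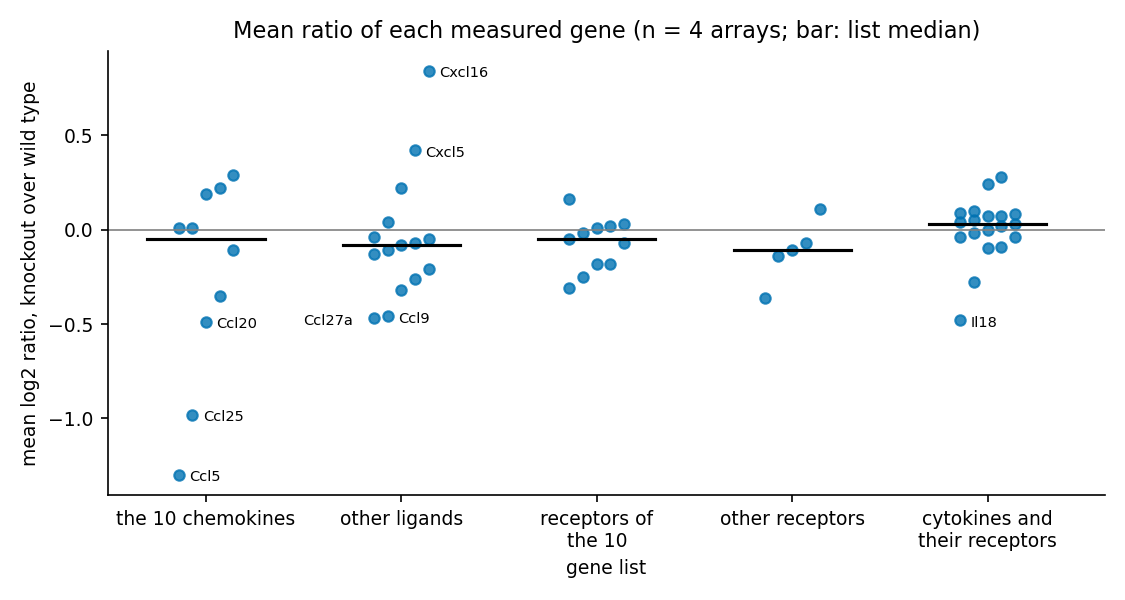
Mean log2 ratio of knockout over wild type over 4 arrays (vertical axis) for each measured gene of 5 lists, with 1 point per gene and a bar at the list median. Medians lie between -0.11 and 0.03, and Ccl5 at -1.30, Ccl25 at -0.98 and Cxcl16 at 0.84 lie farthest from 0. Among the cytokine receptors, the Ifngr1 probe was saturated on 3 of 4 arrays.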

How the data were processed

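RNA of scraped colonic mucosa was labelled with Cy3 or Cy5 and hybridised to Agilent 4x44k arrays, per the labels' protocols. The scanner files the authors deposited hold spot intensity per channel from Agilent Feature Extraction. The headers give its version as 10.5.1.1, but the submitters' processing notes name 8.5.1.1. The deposited log10 ratios of Cy5 over Cy3, computed by that software per the file headers, were not used. The authors also deposited tables of transcripts past their rule, with a linear ratio per array. How these were normalised, and which sample each array number is, is not stated there.

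With limma 3.58.1 in R 4.3.3, median signals were corrected by normexp (offset 50) and then normalised within arrays by loess, in which controls had no weight. Outlier spots were left out. A probe was kept if it stood well above background on 2 or more arrays in 1 genotype's channel (21309 with a symbol), and the brightest stood for its gene. Symbols came from transcript accessions, for 25114 of 41174 probes. Genes were tested by lmFit and eBayes with a dye term, Benjamini-Hochberg adjusted over 14701 genes at 0.05. Channel levels follow loess and Aquantile scaling. The number of arrays, 4, limits the precision. The procedure was tested on simulated data, in which no array stood apart as pair 1 did here.

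The members and gene lists were chosen with earlier results of these data known. Named genes are the members, Tlr2, up to 4 genes per list by smallest p, fixed receptors and the 5 nearest patterns. A few genes that this rule names are not reported here. Others, including the Hox genes, Cd3d, Cd3e, Cd247, Ccr3, Ackr3, Ifngr1, Ifngr2, Slc26a3, Acta2, Cxcl5 and the undetected genes, were added after values were seen. The methylation arrays were not used.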

Additional observations from a re-analysis of the deposited data

Results flagged for a closer look

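Of 30 groups of 4 samples examined (the level in each genotype and the ratio, for the brightest probe of each of the 10 chemokines), 2 held a sample far from the others, where chance flags about 1 in 20. The knockout sample of pair 2 had a Ccl8 log2 level of 6.45, below the 3 other knockout samples at 6.55 to 6.56, and that spot was not well above background. The knockout sample of pair 4 had a Cxcl9 level of 7.40, above the others at 6.68 to 6.80, and the wild-type sample of the same array was also the highest of its group at 6.84.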

How the results depend on the processing

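For the 10 mean ratios, 111 of 118 values from alternative fits kept their direction, and none passed an adjusted p of 0.05 in limma (lowest 0.116). As Tlr2 itself had an adjusted p of 0.314 in the main analysis, that says little about stability. Many of the 118 values could not change direction. With balanced dyes, leaving out the dye term does not alter the mean. The changed filters used the same probe for each member they kept. The strict filter removed Ccl8 and Cxcl1 and left 8 members. The mean of all probes is the main value for every member with a single probe. The mean had opposite signs in the 2 dye orientations for 3 members, Ccl28 (-0.31 and 0.69), Ccl8 (0.04 and -0.02) and Cxcl12 (0.37 and -0.34). Cxcl12 changed sign with median centring (-0.07) and with offset 1 (-0.01), and ranged from -0.50 to 0.53 when 1 array was left out. Ccl8 ranged there from -0.01 to 0.03 and Cxcl10 from 0.00 to 0.45. Genes called over the whole array, 0 in the main analysis, were 3 with no dye term, 1 with no background correction, 4 with processed signals, 1 with median centring, 1 with the strict filter and 4 with offset 1. Genes higher by the submitters' rule were 271 with processed signals, 45 with median centring and 177 with offset 1. Genes lower were 278 and 293 under the first 2 of these. Leaving out 1 array gave 93 to 388 higher and 84 to 495 lower, the highest of both without pair 1. Members lower by the rule were 2 with processed signals (Ccl5, Cxcl1), 3 with median centring (Ccl5, Ccl20, Ccl25) and 1 to 3 when 1 array was left out. Members higher were 1 (Cxcl9) with processed signals and 1 with offset 1. The cause of these changes was not tested. The fitted value of Ccl20 was -0.27 and of Ccl25 -0.58 without pair 2, and of Ccl25 -0.66 without pair 5. The ratios already pair the knockout and wild-type sample of each array. No paired analysis was possible because, beyond that, the numbers that expression and methylation arrays share belong to different molecules. Signal over background limits Ccl8, Cxcl1 and Cxcl9 most.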
